A study of Mus musculus with 22 samples.

Results

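The HoxC cluster of the mouse is a row of 9 homeobox genes on chromosome 15, which here were Hoxc13, Hoxc12, Hoxc11, Hoxc10, Hoxc9, Hoxc8, Hoxc6, Hoxc5 and Hoxc4, 9 of 21827 protein-coding genes. They were taken by name in build mm10, also called GRCm38. The promoter of each was the 1 kb on either side of every protein-coding start site in the GENCODE M21 basic set. The whole cluster with 5 kb on either side, 102916103 to 103041852 and 125.75 kb long, was described as well. Chromatin immunoprecipitation and sequencing had been carried out in embryonic stem cells of the mouse, kept in serum and LIF medium. Wild-type E14 cells were profiled for MTF2, EZH2 and the histone marks H3K27me3 and H3K4me3, with 2 libraries each. A line named Mtf2 GT/GT, in which a gene-trap cassette interrupts the coding sequence of Mtf2 on both alleles, was profiled for EZH2 and both histone marks, again with 2 libraries each. The descriptions of some gene-trap samples also say E14, but the parental line and number of clones are not given, and no MTF2 peak list of these cells was used, so the loss of MTF2 was not checked here.

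Each of the 7 peak lists stands for the pair of libraries of its group and gives only where a peak starts and ends, without a height. The values are therefore positions, lengths and counts with no spread between replicates, and no difference was tested. A peak is called kept when a gene-trap peak of the same mark shares at least 1 bp with it, and a promoter is called kept when both lists touch its window. Sequencing depth is not in the lists, and a peak missing from one can be one that was too weak to be called. The labels' names for the lists carry the term MAnorm, and how that step filtered peaks is not given in the sources used here, so kept and lost refer to the lists as deposited.

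HOX proteins are homeodomain transcription factors that give cells of the embryo their position along the head-to-tail axis. The genes of a cluster lie in the order of their domains of expression, and in the HoxC cluster Hoxc4 marks the anterior end and Hoxc13 the posterior end. In embryonic stem cells the clusters are silent and carry Polycomb chromatin. EZH2 is the catalytic subunit of Polycomb repressive complex 2 (PRC2), which places H3K27me3. MTF2, a Polycomb-like protein, is an accessory subunit of PRC2 that binds unmethylated CpG-containing DNA. H3K4me3 marks CpG-rich promoters, and promoters with both histone marks are called bivalent.

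The sequences that the results below turn on are 3 promoters, those of Hoxc9, Hoxc13 and Hoxc5, and EZH2 peaks left in the gene-trap cells. They are read from GRCm38 on the + strand, which is also the strand of all 9 genes. Capitals mark the trinucleotide GCG on either strand (GCG or CGC, overlaps counted), a CpG-containing motif searched because the title of the study names selective DNA binding by MTF2. The Hoxc9 promoter is shown because EZH2 covered all 250 bp of it in both lines, and those of Hoxc13 and Hoxc5 because neither window had an EZH2 peak in the gene-trap cells. Of the 250 bp printed, wild-type EZH2 covered 174 bp at Hoxc5 and 0 bp at Hoxc13, whose stretch lies in a gap between the wild-type EZH2 peaks that reach the window.
Hoxc9 promoter, chr15:102976782-102977031, EZH2 in both lines: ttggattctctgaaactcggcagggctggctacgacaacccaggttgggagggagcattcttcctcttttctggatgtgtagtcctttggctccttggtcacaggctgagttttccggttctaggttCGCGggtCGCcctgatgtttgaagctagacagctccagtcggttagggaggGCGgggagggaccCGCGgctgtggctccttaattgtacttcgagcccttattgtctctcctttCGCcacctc
Hoxc13 promoter, chr15:102920853-102921102, no EZH2 in either line: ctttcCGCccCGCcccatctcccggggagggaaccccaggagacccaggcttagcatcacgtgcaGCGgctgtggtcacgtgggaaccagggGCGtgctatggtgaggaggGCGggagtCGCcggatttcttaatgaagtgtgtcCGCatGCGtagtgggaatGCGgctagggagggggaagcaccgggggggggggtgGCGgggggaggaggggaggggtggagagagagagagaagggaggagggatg
Hoxc5 promoter, chr15:103013565-103013814, EZH2 in wild-type cells: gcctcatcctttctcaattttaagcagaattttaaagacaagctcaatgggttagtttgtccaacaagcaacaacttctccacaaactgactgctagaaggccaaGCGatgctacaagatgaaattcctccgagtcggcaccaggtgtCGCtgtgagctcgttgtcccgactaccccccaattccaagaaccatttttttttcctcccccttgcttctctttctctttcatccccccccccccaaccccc
Of the peaks, the first lies upstream of Hoxc9 and holds 11 matches. The next, in a Hoxc9 intron, holds no CpG at all. The peak in the Hoxc8 intron alone decides the call for the Hoxc8 promoter.
EZH2 peak of gene-trap cells, chr15:102976065-102976244, upstream of Hoxc9: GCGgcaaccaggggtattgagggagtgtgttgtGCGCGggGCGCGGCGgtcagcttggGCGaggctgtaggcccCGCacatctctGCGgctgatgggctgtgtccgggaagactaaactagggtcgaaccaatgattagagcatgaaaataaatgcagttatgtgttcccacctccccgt
EZH2 peak of gene-trap cells, chr15:102977966-102978137, Hoxc9 intron: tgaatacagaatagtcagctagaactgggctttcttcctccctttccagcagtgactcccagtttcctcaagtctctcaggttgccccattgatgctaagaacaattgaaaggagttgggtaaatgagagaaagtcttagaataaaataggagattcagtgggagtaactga
EZH2 peak of gene-trap cells, chr15:102991555-102991741, Hoxc8 intron: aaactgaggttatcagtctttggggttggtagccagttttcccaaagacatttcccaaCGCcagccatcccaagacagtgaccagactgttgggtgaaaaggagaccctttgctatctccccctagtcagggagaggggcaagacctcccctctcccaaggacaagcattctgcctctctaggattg
The promoters printed hold 7 matches for Hoxc9, 10 for Hoxc13 and 2 for Hoxc5. Among the other members, Hoxc8 holds 22, Hoxc12 and Hoxc10 hold 12 each, Hoxc11 holds 5, Hoxc4 holds 4 and Hoxc6 holds 2. A match was present in 80.6% of 21851 promoters of 250 bp, with a median of 6. These stretches are shorter than the promoter windows, and of the 9 only that of Hoxc9 held gene-trap EZH2, so the counts were not compared between kept and lost promoters.

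In wild-type cells all 9 promoters carried all 4 marks. An MTF2 peak touched 9 of 9 windows, against 15.9% of all genes. EZH2 touched 9 of 9 (16.6% of all genes), H3K27me3 touched 9 of 9 (19.3%) and H3K4me3 touched 9 of 9 (65.5%). How much of each window the peaks covered varied along the cluster. MTF2 covered 61.7% of the Hoxc13 window, 94.4% at Hoxc12, 100% at Hoxc11, 93.3% at Hoxc10 and 100% at Hoxc9. Toward the anterior end it covered 81.0% at Hoxc8, 64.7% at Hoxc6, 50.3% at Hoxc5 and 31.7% at Hoxc4. The Hoxc4 value is over 4002 bp because Hoxc4 has 2 annotated starts, and around its principal start alone MTF2 covered 63.4% of 2001 bp. MTF2 coverage was thus highest in the stretch from Hoxc12 to Hoxc9 and lower at Hoxc13 and from Hoxc8 to Hoxc4. Wild-type EZH2 covered 57.4% at Hoxc13, 100% at Hoxc12, Hoxc11 and Hoxc9, 93.6% at Hoxc10, 93.4% at Hoxc8, 73.1% at Hoxc6, 86.4% at Hoxc5 and 38.4% at Hoxc4, or 76.9% around the principal Hoxc4 start. With that start alone, EZH2 was lowest at Hoxc13 and MTF2 at Hoxc5.

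At Hoxc13 and Hoxc5 the start site itself lay outside the wild-type peaks of MTF2 and EZH2. Hoxc13, which in mice is needed for normal hair and nails, had the nearest EZH2 peak 23 bp and the nearest MTF2 peak 33 bp from its start at 102921103. Hoxc5, one of the anterior members, had EZH2 71 bp and MTF2 141 bp from its start at 103013815. Every other principal start lay inside a peak of both.

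In the gene-trap cells 6 of 9 promoters kept an EZH2 peak and 3 lost it, whereas 4.24% of the 3628 genes with EZH2 in wild-type cells kept it. The 6 form an unbroken run from Hoxc12 to Hoxc6, and the 3 that lost it are Hoxc13 at one end and Hoxc5 and Hoxc4 at the other. Unlike Hoxc13 and Hoxc4, the Hoxc5 window was touched by wild-type EZH2 peaks that were kept through gene-trap peaks outside the window (103009112 to 103013476 and 103013923 to 103016214). The amount left differed widely within the run. Hoxc9, which specifies thoracic motor neurons in mice, kept the most, with 5 gene-trap peaks over 1439 bp (71.9% of its window). One of these, 924 bp wide (102976456 to 102977379), covered its start at 102977032, and Hoxc9 was the single member with a start inside a gene-trap EZH2 peak.

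Hoxc11 kept 786 bp (39.3%) in 1 peak that began 115 bp past its start. Hoxc12 kept 679 bp (33.9%), beginning 322 bp from its start. Both belong to the posterior group of Hox genes. Hoxc10, which takes part in hindlimb motor neuron identity in mice, kept 215 bp (10.7%), at 555 bp from its start. Hoxc6, expressed at forelimb levels in mice, kept 120 bp, at 881 bp from its start. Hoxc8, which in mice acts in brachial motor neurons and in the thoracic skeleton, kept 53 bp (2.65%), at 948 bp from its start.

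The calls near the window's edge depend on its width. With peaks of at least 500 bp the kept promoters were 4 (Hoxc12, Hoxc11, Hoxc9 and Hoxc6), and with the start itself required inside the peak 1 was left, Hoxc9. With a window of 2.5 kb they were 7, because the nearest gene-trap EZH2 peak was 1149 bp from the Hoxc5 start. For Hoxc13 and Hoxc4 the nearest was 13879 bp and 18753 bp away.

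**Figure D1:**
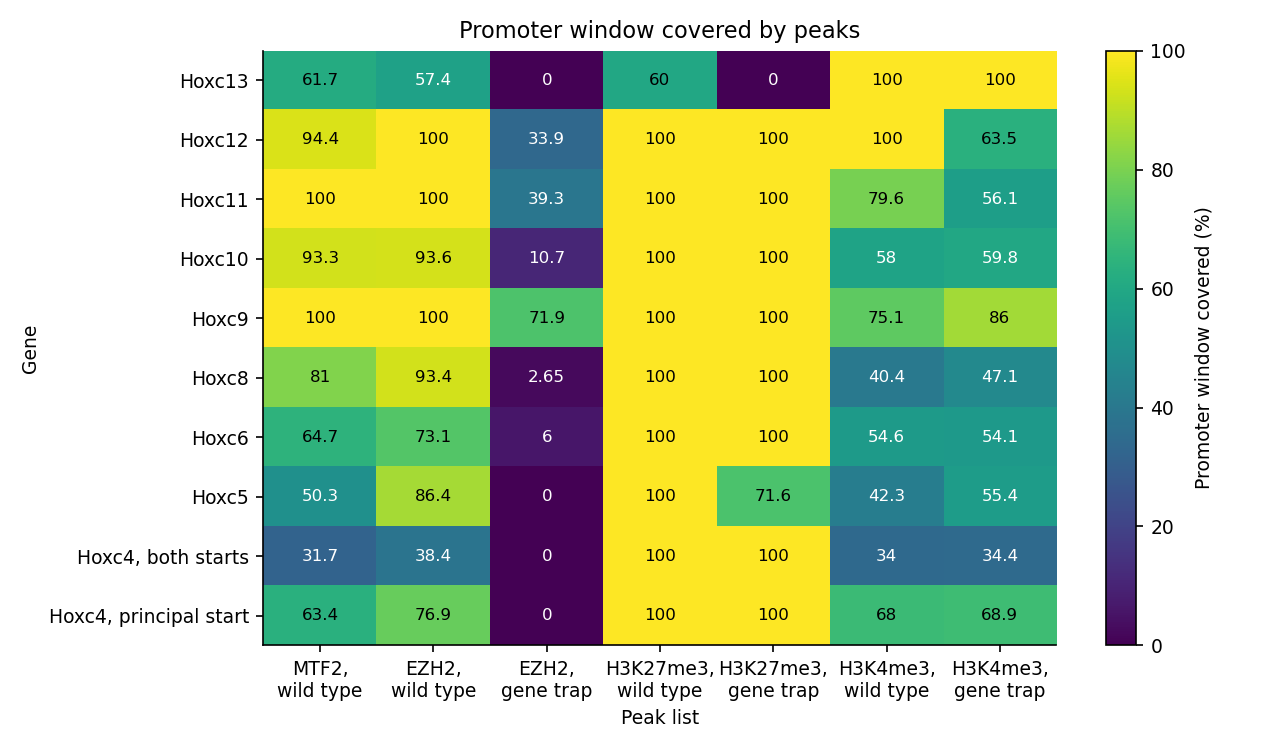
Percent of each promoter window (1 kb on either side of the annotated starts, with Hoxc4 given over both starts and for its principal start) covered by peaks of each list, with genes in order from the posterior end at the top and 1 value per row and list, each list standing for 2 libraries. In the gene-trap EZH2 column Hoxc9 reaches 71.9%, Hoxc11 39.3% and Hoxc12 33.9%, while Hoxc13, Hoxc5 and Hoxc4 are at 0.

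Over the whole region, EZH2 peaks in wild-type cells numbered 45 and covered 57.3% of it, and in gene-trap cells 34 covered 10.01%. The gene-trap peaks were narrow, with a median of 272 bp against 943 bp in the wild-type list. The widest of them (1082 bp, 103010454 to 103011535) lay in Hoxc6 and held 305 bp of coding exon and 497 bp of UTR. All 34 lay inside wild-type EZH2 peaks and touched MTF2 peaks, and 98.7% of their length was inside MTF2 peaks, against 78.8% of the wild-type EZH2 length. The gene-trap peaks began at 102934982, near Hoxc12, and ended at 103015642, in Hoxc5. No gene-trap EZH2 peak lay in the 18879 bp before that stretch, which holds Hoxc13, or in the 26210 bp after it, which holds Hoxc4.

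**Figure D2:**
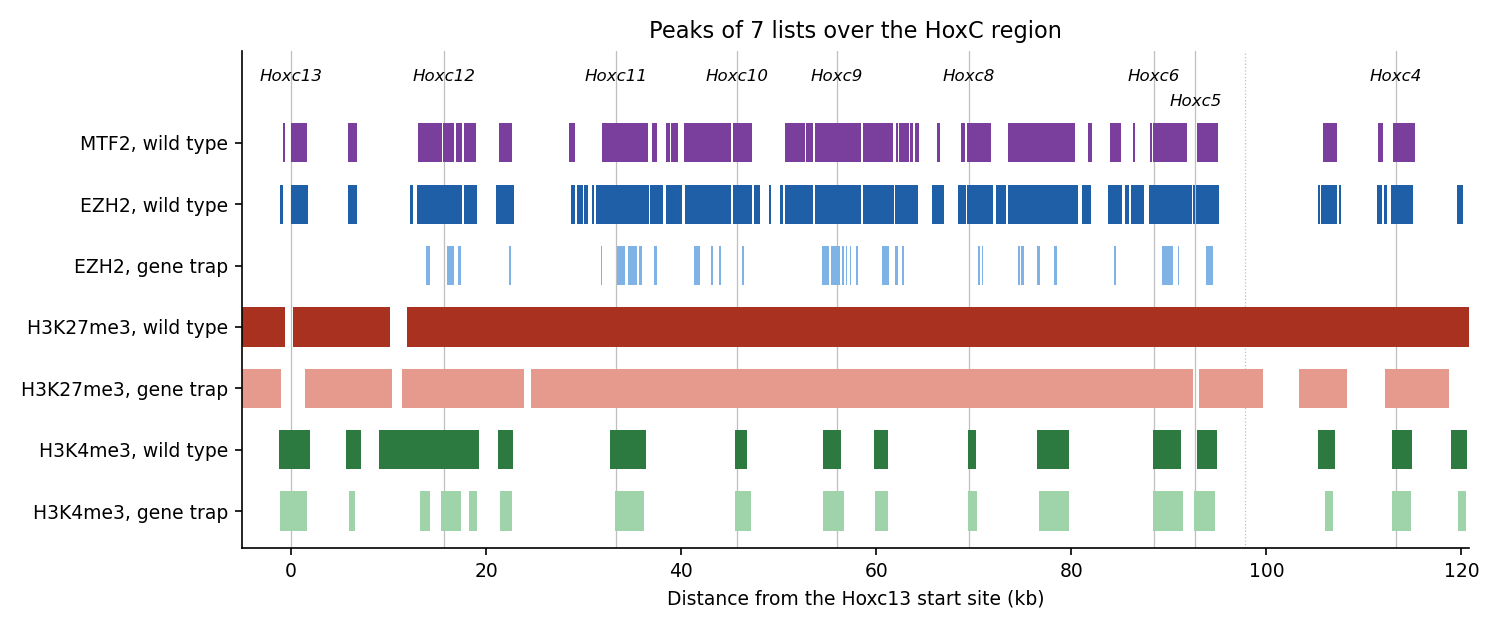
Peaks of each of the 7 lists (1 row per list, boxes to scale) against the distance in kb from the start of Hoxc13, with vertical lines at the principal start of each gene and a dotted line at the distal Hoxc4 start. The 34 gene-trap EZH2 peaks sit from just before Hoxc12 to Hoxc5, while gene-trap H3K27me3 covers 88.6% of the region.

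Of the 45 wild-type EZH2 peaks, 14 were kept and 31 were lost, and genome-wide 4.76% of 7213 were kept. The 14 kept peaks had a median width of 2912.5 bp (905 to 7263 bp) and all had MTF2. The 31 lost ones had a median of 638 bp (174 to 2912 bp), and 16 of them touched MTF2. Under the 1 bp rule a wider peak has more room to touch a gene-trap or an MTF2 peak. The contrast in width and MTF2 therefore depends in part on the rule. Width and state overlapped in the middle of the range. The widest lost peak, 2912 bp at 102971712, had 2790 bp of MTF2, and the peak over the Hoxc4 start, 2243 bp, had 2019 bp of MTF2. The peak next to the Hoxc13 start, 1657 bp, had 1609 bp of MTF2. Gene-trap peaks covered a median of 23.8% of each kept peak in the region (11.03% to 51.4%), and 16.4% over all 343 kept peaks. The highest share, 51.4%, was at the 4794 bp peak over the Hoxc9 start. The widest wild-type peak, 7263 bp between the protein-coding starts of Hoxc8 and Hoxc6, touched no promoter window, and 4 gene-trap peaks covered 14.8% of it. Counted with at least 50% of the wild-type peak covered, 1 peak was kept, that at Hoxc9, and with peaks of at least 500 bp, 6 were kept.

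**Figure D3:**
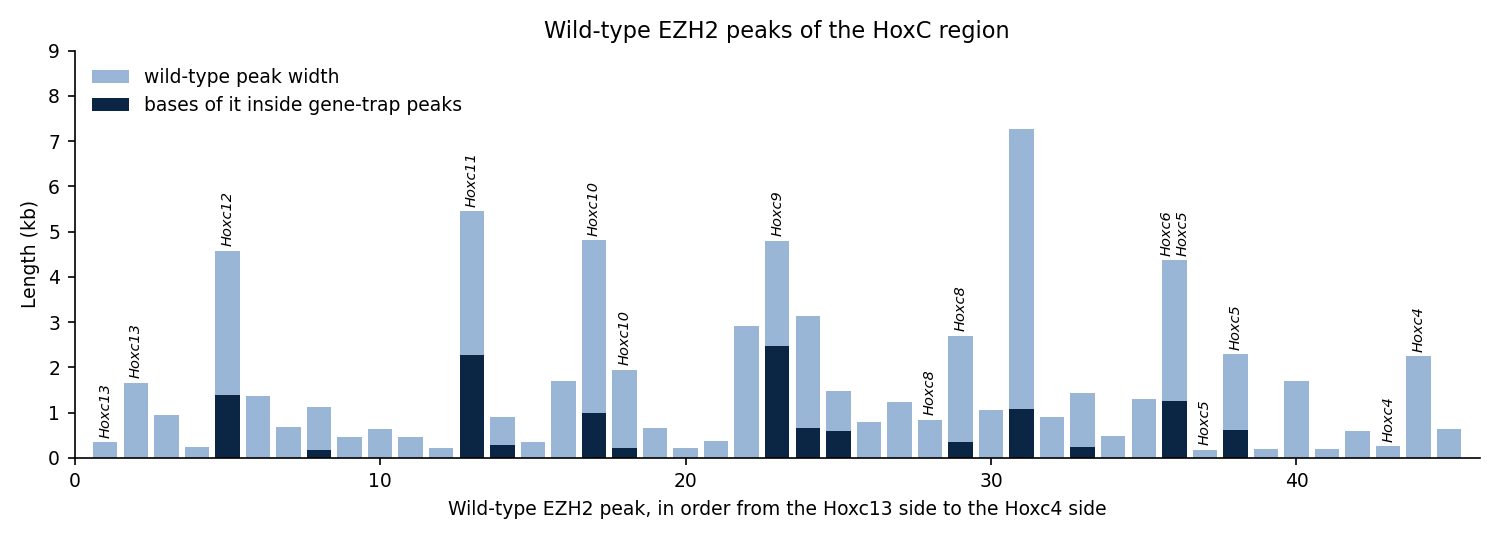
Width in kb of the 45 wild-type EZH2 peaks of the region in genomic order from the Hoxc13 side (pale bars) and the bases of each that lie in gene-trap EZH2 peaks (dark bars), with the gene named where a peak touches its promoter window. Dark bars occur in 14 peaks, all from Hoxc12 to Hoxc5, and the highest share (51.4%) is at Hoxc9.

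The gene-trap EZH2 peaks were mostly away from the GENCODE start sites used for the promoters. Of the 34, 10 lay within 1 kb of a start, 1 contained one, and the median distance was 1495 bp, with a highest of 8755 bp. These distances leave out RefSeq starts and would be shorter with them for some peaks. The RefSeq starts of Hoxc6 at 102998226 and 103000732, for example, had a gene-trap EZH2 peak 346 bp and 1147 bp away. Coding exons of the protein-coding transcripts made up 20.9% of their length, UTRs 9.53%, introns 36.2% and sequence outside these transcripts 33.4%. In the wild-type EZH2 peaks coding exons made up 9.94%, UTRs 10.7%, introns 23.4% and sequence outside them 56.0%. The gene-trap peaks thus lay more within these transcripts. The classes were taken from the full GENCODE M21 set, which holds transcripts beyond the basic set that gave the starts. The 924 bp peak over the Hoxc9 start, for example, begins upstream of that start, yet 815 bp of it counted as intron and none as outside transcripts. At Hoxc11, for example, 666 of 786 bp of the peak after the start were coding, and at Hoxc10 all 215 bp were. The gene-trap peak with 465 of 652 bp of coding exon (102981726 to 102982377) lay in Hoxc9.

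H3K27me3 stayed over nearly the whole cluster. It touched 8 of 9 promoters in the gene-trap cells, against 13.7% of the 4206 genes with it in wild-type cells, and covered the windows of Hoxc12, Hoxc11, Hoxc10, Hoxc9, Hoxc8, Hoxc6 and Hoxc4 fully. All 3 wild-type H3K27me3 peaks were kept, against 11.1% of 6294 genome-wide. In wild-type cells 1 domain of 108818 bp ran from before Hoxc12 to beyond Hoxc4, and the region was covered to 98.0%. In gene-trap cells 7 peaks covered 88.6%, the widest 67885 bp (102945694 to 103013578). The gene-trap peaks covered a median of 87.5% of each of the 3, and 44.0% over all 697 kept peaks. All of the 12592 bp with EZH2 in the gene-trap cells lay within H3K27me3, and made up 11.3% of its length there.

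The H3K27me3 domain of the gene-trap cells had wider and additional gaps at both ends of the cluster. At Hoxc13 the wild-type gap of 800 bp over the start was 2412 bp in the gene-trap cells, all of it under H3K4me3 in both lines. The nearest gene-trap H3K27me3 was 1006 bp from the Hoxc13 start, just outside the window, so Hoxc13 counts as lost at 1 kb and as kept at 2.5 kb. At Hoxc5 a gap of 569 bp opened over the start, which left 71.6% of the window covered. Toward Hoxc4 there were gaps of 3721 bp and 3885 bp, both between the distal and the principal Hoxc4 start, and 1992 bp at the end of the region. A gap of 700 bp lay within the body of Hotair. Between Hoxc13 and Hoxc12 the order was the opposite, with a gap of 1750 bp in wild-type and 1081 bp in gene-trap cells. The breaks over the starts of Hoxc13 and Hoxc5 fall where the EZH2 calls were also lost, while Hoxc4 lost its EZH2 peaks and kept H3K27me3 over its whole windows.

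H3K4me3 was kept at 9 of 9 promoters, against 98.8% of the 14306 genes with it in wild-type cells. Bivalent promoters, with H3K27me3 as well, numbered 9 in wild-type cells, and 8 had both in the gene-trap cells, all but Hoxc13. Genome-wide 14% of 3984 such genes had both in the gene-trap list. All 15 wild-type H3K4me3 peaks of the region were kept, against 81.3% of 27418 genome-wide. The start of Hoxc5 lay 155 bp outside the wild-type peak and inside the gene-trap peak (103013708 to 103015813). Hoxc9 H3K4me3 covered 75.1% of the window in wild-type and 86.0% in gene-trap cells, Hoxc8 40.4% and 47.1%, and Hoxc10 58.0% and 59.8%. At Hoxc12 the values were 100% and 63.5%, at Hoxc11 79.6% and 56.1%, at Hoxc6 54.6% and 54.1%, at Hoxc4 34.0% and 34.4% (68.0% and 68.9% around the principal start), and at Hoxc13 100% in both. At Hoxc5 they were 42.3% and 55.4%. Coverage was thus lower in the gene-trap list at Hoxc12 and Hoxc11 and nearly equal or higher at the other members.

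The H3K4me3 length of the region was 39.1 kb in wild-type and 29.3 kb in gene-trap cells. Most of the loss was at Hoxc12. There the widest wild-type peak, 10199 bp (102930124 to 102940322), was replaced by 3 peaks that covered 3783 bp of it, so that 6416 of the 11005 bp lost in the region came from this peak. Of the 15 wild-type peaks, 3 were covered fully, those at Hoxc10, Hoxc9 and Hoxc8, and 3 were covered to less than 50%. These were the Hoxc12 peak (37.1%), the peak at 102926703 at the 3′ end of Hoxc13 (36.1%) and the peak at 103026426, between the Hoxc4 starts (48.5%). The peak beyond Hoxc4 at 103040076 was the single one without MTF2, and 50.9% of it was covered. The median over the 15 was 89.6%, and over all 22294 kept peaks 91.8%.

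In wild-type cells the non-coding genes of the region lay in the same H3K27me3 domain. Hotair is a long non-coding RNA read from the opposite strand between Hoxc12 and Hoxc11, known from human cells as an RNA that interacts with PRC2. Its start at 102947730 had no EZH2 or H3K4me3 peak within 1 kb in either line and no MTF2 peak in wild-type cells, and H3K27me3 covered the whole window in both. In the gene-trap cells 2969 of the 3669 bp of its body were within H3K27me3. Of the short RNA genes near it, Gm27337, within the Hotair body, had 0 of 69 bp under gene-trap H3K27me3. The nearest such peak was 335 bp from its start. Gm27443, Gm28011 and Gm27535 lay fully within H3K27me3 in both lines. Gm28011 and Gm27535 had MTF2 and EZH2 peaks within 1 kb of their starts in wild-type cells, and Gm27337 and Gm27443 had none. Mir196a-2, between Hoxc10 and Hoxc9, and Mir615, in a Hoxc5 intron, make the microRNAs below, shown with the seed (bases 2 to 8) in capitals from RefSeq (GRCm38.p6, + strand).
mmu-miR-196a-5p, chr15:102973365-102973386: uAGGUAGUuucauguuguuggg
mmu-miR-615-3p, chr15:103014969-103014990: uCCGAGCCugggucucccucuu
The seeds differ, and miR-196 is known in mice to target Hoxb8. Mir196a-2 lay in the widest EZH2 peak that was lost, and its nearest gene-trap EZH2 peak was 2140 bp away. H3K27me3 covered its window in both lines, and it had no H3K4me3 in either. Mir615 lay under all 4 marks in wild-type cells, and a gene-trap EZH2 peak covered 38 of its 92 bp. An enhancer active in limb and tail of mouse embryos, mm1417 in the VISTA set as annotated by RefSeq, lies between Hoxc11 and Hoxc10 (102958891 to 102961092, 2202 bp). Wild-type EZH2 covered 1892 bp of it and MTF2 1135 bp, gene-trap EZH2 covered none, and H3K27me3 covered it fully in both lines.

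Alternative starts carried different marks. The distal Hoxc4 start at 103018934 had no MTF2, EZH2 or H3K4me3 peak within 1 kb in any list and was under H3K27me3 in both lines, with MTF2 2773 bp away. All marks counted for Hoxc4 other than H3K27me3 thus come from the principal start at 103034395. RefSeq also predicts a start of Hoxc6 at 102998226, which is 11347 bp upstream of the GENCODE start. It lay inside peaks of MTF2, EZH2 and both histone marks in wild-type cells and of both histone marks in gene-trap cells, and the nearest gene-trap EZH2 peak was 346 bp from it. The GENCODE gene record of Hoxc6 begins close by, at 102998257. Further RefSeq starts of Hoxc6, at 103000732 and 103000854, had no gene-trap EZH2 peak in their windows, the nearest being 1147 bp and 1269 bp away. The RefSeq start of Hoxc5, at 103014008, lies 193 bp downstream of the GENCODE start, and its window touched a gene-trap EZH2 peak 956 bp away. Of the RefSeq starts of Hoxc8, that at 102990539, 68 bp from the GENCODE start, had its nearest gene-trap EZH2 peak 1016 bp away and none in its window, while that at 102990592 had it at 963 bp.

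EZH2 in the gene-trap cells lay in the more CpG-rich parts of the region. CpG density was 4.61 per 100 bp in the gene-trap EZH2 peaks, 2.66 in the rest of the wild-type EZH2 length, 3.39 in MTF2 peaks and 0.893 outside wild-type EZH2 peaks. The difference lay within the kept peaks. Their remainder had 2.69 CpG per 100 bp and the lost peaks had 2.63. GCG followed the same order, with 3.06 per 100 bp in the gene-trap peaks, 1.64 in the rest and 0.425 outside. In all 4 Hox clusters the gene-trap peaks had more CpG than the rest of the kept peaks, with 5.04 against 3.43 per 100 bp in HoxA, 4.24 against 3.08 in HoxB and 5.01 against 3.56 in HoxD. Genome-wide the values were 5.59 in gene-trap peaks, 4.04 in the rest of the kept peaks and 6.26 in the lost peaks. Lost peaks thus held more CpG than gene-trap peaks in the whole list and less in the HoxC region. The other clusters showed the same order as HoxC, with 2.52 CpG per 100 bp in the lost peaks of HoxA, 2.89 in HoxB and 3.49 in HoxD.

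CpG did not separate kept from lost peaks one by one. The kept wild-type EZH2 peaks of the region ranged from 0.663 to 4.82 CpG per 100 bp with a median of 3.29, and the lost ones from 0 to 6.82 with a median of 1.76. The richest of all 45, with 6.82, was the lost peak next to the Hoxc13 start. Of the 34 gene-trap peaks, the richest had 11.3 CpG per 100 bp and lay in Hoxc9 (102981726 to 102982377). In contrast, 2 had no CpG and 4 had no GCG, among them the Hoxc9 intron peak printed above. In 200 bp tiles, sorted by the EZH2 peak at their centre, the median was 4.5 CpG per 100 bp in 63 tiles with gene-trap EZH2, 2 in 299 with wild-type EZH2 only and 0.5 in 266 with neither. The quartiles were 2 and 6.5, 0.75 and 4, and 0 and 1 in the same order. Neighbouring tiles share their sequence context and were not tested.

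**Figure D4:**
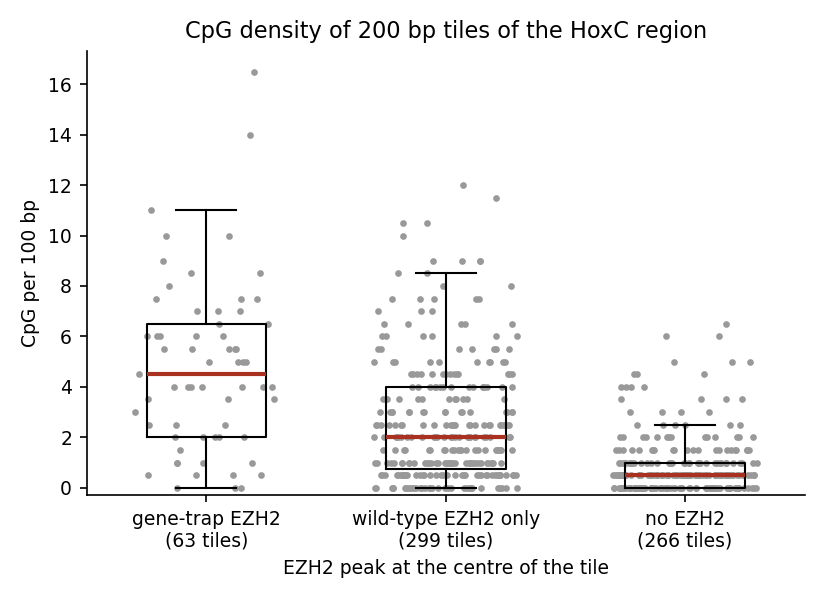
CpG per 100 bp of 200 bp tiles of the HoxC region, sorted by the EZH2 peak at the tile's centre, with 1 point per tile, boxes from the lower to the upper quartile, red lines at the medians and whiskers to the farthest tile within 1.5 box lengths. The medians are 4.5, 2 and 0.5, and all 3 classes contain tiles without CpG.

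Beside the other Hox clusters, HoxC had similar shares of EZH2 and H3K27me3 length left and the lowest share of H3K4me3 length. Gene-trap EZH2 length was 17.5% of wild type in HoxC, 17.6% in HoxA, 14.4% in HoxB and 19.9% in HoxD, and 3.78% over the whole lists. For H3K27me3 it was 90.4%, 87.2%, 88.6% and 82.9%, and 15.9% over the whole lists. For H3K4me3 it was 74.9% in HoxC, 105% in HoxA, 116% in HoxB and 145% in HoxD, and 81.8% over the whole lists. Without the widest peak, left out after seeing the data, HoxC stood at 88.3%. EZH2 was kept at 6 of 9 HoxC promoters, 9 of 12 in HoxA with Evx1, 7 of 10 in HoxB and 6 of 10 in HoxD with Evx2. Among the 32 genes of the other clusters 27 had an H3K4me3 peak in both lines, and the other 5 gained one. None of the HoxC promoters could gain one, since all had it in wild-type cells. The share of gains over all genes without wild-type H3K4me3 was not computed, so these 5 are not read as a result. These differences between clusters were not tested.

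**Figure D5:**
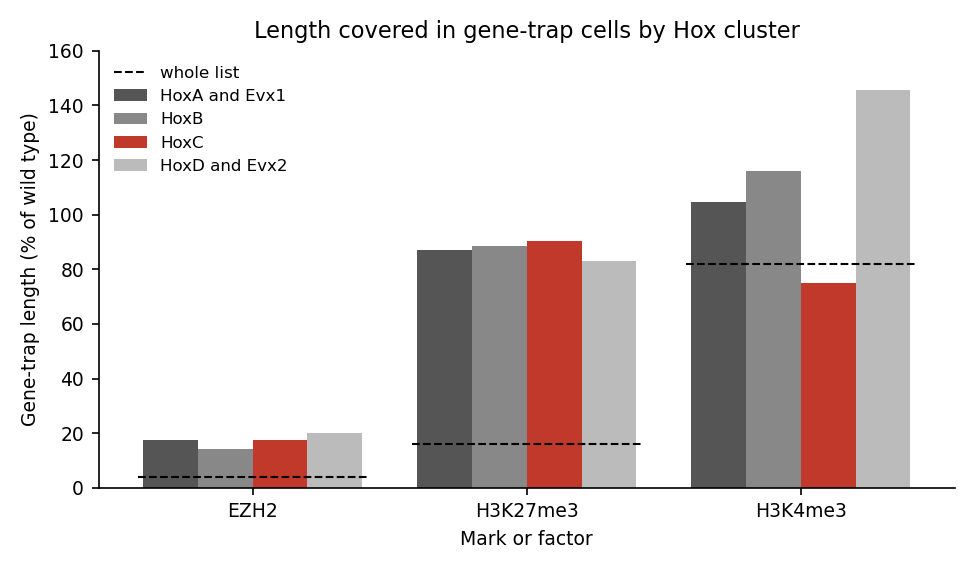
Peak length in gene-trap cells as a percent of that in wild-type cells for EZH2, H3K27me3 and H3K4me3 in each Hox cluster with 5 kb on either side, 1 bar per cluster and 1 pair of lists per mark, with dashed lines at the value over the whole lists. HoxC is at 17.5%, 90.4% and 74.9%, and its H3K4me3 bar is the single one below 100% for that mark.

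Peaks in the space between the region and its neighbouring genes were not described, so the ends of the domain were not located. The 3 nearest protein-coding genes before the region (Calcoco1, Atp5g2 and Atf7) and after it (Smug1, Cbx5 and Hnrnpa1) had no MTF2 or EZH2 at their promoters and kept H3K4me3. Smug1, 111438 bp beyond the region, had H3K27me3 in wild-type cells and none in gene-trap cells. A set of 12 genes codes for HOX cofactors and Cdx factors, which bind DNA with HOX proteins or act upstream of Hox genes. Of these, 7 had MTF2, against 15.9% of all genes. All 12 kept H3K4me3, as did 98.8% of all genes with it in wild-type cells. EZH2 was kept at 2 (Meis2 and Cdx2) and lost at 5, and genome-wide 4.24% of the genes with it kept it. H3K27me3 was kept at 3 and lost at 4, and genome-wide 13.7% kept it. As a check of the labelled cell type, 10 of 10 embryonic stem cell marker promoters had H3K4me3 in both lines, where 65.5% of all genes had it in wild-type cells. One of the 10, Esrrb, also had MTF2 and EZH2 in wild-type cells and H3K27me3 in both lines. Of 6 fibroblast markers, 3 had H3K4me3 in both lines, Pdgfrb in the gene-trap cells alone and 2 in neither. The 3 with it in both lines (Col1a1, Col1a2 and Thy1) also had H3K27me3 in wild-type cells and not in gene-trap cells.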

How the data were processed

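The deposited lists hold the start and end of each peak, a unit named other here because they carry no signal or score. Per the labels, each list belongs to a group of 2 libraries, with reads of 75 bp from fragments of 300 bp, and per the submitters' processing notes CASAVA, BWA 0.7.10-r789 and MACS2 2.7 were used with build mm10 (GRCm38). How the libraries were joined and which thresholds applied is not given in the sources used here, and library depths are unknown. Of 22 samples, 14 stand behind the 7 lists used, and 8 (JARID2, input and the Jarid2 and Eed mutants) were not analysed here.

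Overlaps (1 bp), lengths and distances were computed with Python 3.11.15 and numpy 2.4.6 and checked on 300 simulated cases with 0 wrong. Promoters came from GENCODE M21 basic, genes with the same symbol were joined and the mitochondrial chromosome was left out. CpG was counted in GRCm38.p6. Each group has 1 list, so no test was made. Members and gene lists were chosen with earlier results of these data known. The list names in the labels carry the term MAnorm, a step not described there. All 9 members were named by rule, and for the likeness of patterns the 5 genes with the smallest Euclidean distance over the 7 lists were taken, of which 1 is not reported here. Alternatives were a 2.5 kb window, the start inside the peak, 1 start per gene, peaks of at least 500 bp, 50% coverage, the region without flanks and, added later, RefSeq starts and the region without its widest H3K4me3 peak.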

Additional observations from a re-analysis of the deposited data

How the results depend on the processing

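Of the counts, EZH2 promoters kept went from 6 to 1 with the start required inside the peak, where 1 H3K4me3 promoter (Hoxc5) also counted as gained against 0, and EZH2 peaks kept went from 14 to 6 with peaks of at least 500 bp and to 1 with 50% coverage. With peaks of at least 500 bp, gene-trap EZH2 length was 9.29% of wild type, the share of it inside MTF2 peaks 100% and that of wild-type EZH2 77.9%. Without the flanks, lengths were 17.7% for EZH2, 91.7% for H3K27me3 and 75.3% for H3K4me3, and 79.8% of wild-type EZH2 was inside MTF2. Without the widest H3K4me3 peak, that length was 88.3%. The ratio of CpG density in gene-trap EZH2 peaks to the rest was 1.73, and 2.05 with peaks of at least 500 bp, 1.51 against the rest of MTF2 peaks and 1.82 without promoter windows. For GCG it was 1.86, and 2.11, 1.61 and 2.10. The cause of these changes was not tested, beyond what each alternative leaves out. Counts within 1.5 times the main count, and lengths, shares and ratios within 0.05 of the main value, were taken as unmoved, which held for 45 values, and 18 moved beyond that, some by little. No paired analysis was possible because each group has 1 list for both its libraries, and leaving out a replicate was not possible for the same reason. Peaks without heights limit what can be seen: a weaker peak that is still called counts as kept.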

Other observations

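The paralogs of each HoxC gene in the other clusters were compared for the same promoter calls. EZH2 was kept at 6 of 9 HoxC promoters and at 22 of the 32 genes of the other clusters with Evx1 and Evx2. Over all genes with it in wild-type cells the share was 4.24%. With groups this small, those in which all genes kept it were not set apart from the shares of the clusters, and nothing was tested. All 4 genes of paralog group 9 (Hoxa9, Hoxb9, Hoxc9 and Hoxd9) kept EZH2 in the gene-trap cells, and so did the 3 genes of group 11, the 3 of group 6 and both of group 12. In group 13 EZH2 was kept at 1 of 4 (Hoxd13), and in group 4 at 1 of 4 (Hoxa4). In group 5 Hoxc5 lost it while Hoxa5 and Hoxb5 kept it, and in groups 10 and 8 Hoxc10 and Hoxc8 kept it while Hoxd10 and Hoxd8 lost it. For H3K27me3 in the gene-trap cells, Hoxc13 was the single paralog among these groups without a peak in its window. The nearest peak was 1006 bp from its start, just outside the window, and with a window of 2.5 kb Hoxc13 was kept. The groups were chosen after the calls were seen, and neighbouring genes can share a peak.

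Genes whose percent of promoter window covered was close to the mean of the 9 HoxC genes over the 7 lists included Slc9a2, Prss12, Nkx1-2 and Kbtbd11, at Euclidean distances of 20.5 to 23.6 percentage points. These 4 had 0% gene-trap EZH2, where the HoxC mean was 18.3%. The members themselves stood at 27.2 (Hoxc6) to 112 (Hoxc13), with Hoxc4 taken over both its windows.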
